A study of Homo sapiens with 4 samples.

Results

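The 7 genes described here are GSDME, GSDMD, CASP4, CASP6, CASP8, CASP9 and NINJ1, chosen by symbol as parts of the machinery of gasdermin pyroptosis, the form of cell death that the study followed. They are 7 of the 16834 genes in the table, and each had reads in every library. The study asked what neobractatin (NBT), a plant compound isolated from Garcinia bracteata, and trametinib, an inhibitor of the kinase MEK, do together and apart in pancreatic ductal adenocarcinoma cells. RNA of cells labelled MIA PaCa-2, an established pancreatic carcinoma line with genotype WT, was sequenced after 12 h without drug (control), with 1 µM NBT, with 5 µM trametinib, or with both at these doses (combination). Each condition is 1 library, so no spread between cultures could be estimated and no p-value is given. The libraries held 18776254 (control), 19437771 (NBT), 18949958 (trametinib) and 19614826 (combination) estimated reads, of which the 7 genes took 0.0188% to 0.0257%. A gene with no read could still stand at up to 3 reads.

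The labels give the line as MIA PaCa-2 in every title, but their cell line entries read MIA PaCa-2, MIA PaCa-3, MIA PaCa-4 and MIA PaCa-5 from library to library. Markers of the line were mixed. KRT8 and KRT18, keratins of epithelial cells, were high, at 1493 to 3799 TPM and 995 to 3142 TPM. CDKN2A, a gene known to be deleted in MIA PaCa-2, had 2643 to 3524 reads in each library. CDH1, the epithelial cadherin known to be low in that line, stood at 51.2 to 86.9 TPM, and VIM, the mesenchymal filament known to be abundant in it, at only 11.5 to 26.4 TPM. These values go against the label in all 4 libraries, and the libraries are called labelled MIA PaCa-2 for that reason. Of the 5 fibroblast markers 3 were in the table and summed to 0.48 to 1.88 TPM, and the 3 endothelial markers summed to 0.29 to 0.67 TPM. Of 5 leukocyte markers 4 were in the table and summed to 94.7 to 141 TPM, nearly all of it CD68, a lysosomal protein that is not restricted to leukocytes, while PTPRC, the pan-leukocyte marker, stayed under 1 TPM. The 1 acinar marker in the table, CPA1, had 1 read in 1 library.

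Gasdermins are proteins that caspases cut, and the freed amino-terminal part inserts into the plasma membrane and forms pores. GSDME is opened by executioner caspases and GSDMD by inflammatory caspases, so that apoptotic and inflammatory signals can both end in pyroptosis. NINJ1 then breaks the leaking membrane apart. Activity in this pathway is set by cleavage and oligomerization of proteins, which RNA levels do not show. In bulk RNA, fewer cells with a transcript and less RNA per cell cannot be told apart.

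CASP4, GSDME and CASP6 passed a fold limit with a single drug, and for these 3 genes the 250 bases before a transcript start in RefSeq are printed, on GRCh38.p14. The CASP4 window lies on the minus strand at chr11:104968575-104968824, the GSDME window on the minus strand at chr7:24757465-24757714 and the CASP6 window on the minus strand at chr4:109703446-109703695. The GSDME and CASP6 windows lie inside the RefSeq spans of these genes, which begin farther upstream. Each thus precedes 1 start and not the whole gene. Capitals mark the 1 match found in them, a NRF2 antioxidant response element pattern.
CASP4: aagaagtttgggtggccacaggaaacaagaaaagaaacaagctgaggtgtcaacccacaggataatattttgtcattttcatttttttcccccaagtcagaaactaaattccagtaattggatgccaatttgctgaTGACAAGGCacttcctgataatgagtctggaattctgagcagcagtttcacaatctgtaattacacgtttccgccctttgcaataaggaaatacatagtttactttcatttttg
GSDME: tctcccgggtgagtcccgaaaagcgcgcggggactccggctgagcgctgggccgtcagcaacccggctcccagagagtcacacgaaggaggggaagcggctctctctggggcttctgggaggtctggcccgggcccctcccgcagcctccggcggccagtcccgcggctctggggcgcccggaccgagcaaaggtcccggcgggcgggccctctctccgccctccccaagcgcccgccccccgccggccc
CASP6: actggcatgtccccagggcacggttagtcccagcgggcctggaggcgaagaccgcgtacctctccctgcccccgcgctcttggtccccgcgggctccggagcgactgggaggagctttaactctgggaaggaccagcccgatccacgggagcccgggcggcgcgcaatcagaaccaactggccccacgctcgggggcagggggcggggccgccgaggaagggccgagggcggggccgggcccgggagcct
Windows were available for 6 of the 7 genes, 9 in all, and none was used for GSDMD. Each was searched on both strands for the AP-1 pattern TGANTCA, the NRF2 pattern TGACNNNGC, the ATF4 pattern TGATGNAA and the ETS pattern CCGGAAG, in which N is any base. Over all 35116 windows of this length these patterns occurred in 6.57%, 10.9%, 3.14% and 8.52%. CASP4 held the NRF2 pattern as TGACAAGGC, beginning 114 bases before the start. In CASP8 the AP-1 pattern occurred as TGACTCA, 61 bases before the start of 1 of its 3 windows, and in CASP9 the ETS pattern occurred 31 bases before the start of 1 of its 2 windows. The windows of GSDME, CASP6 and NINJ1 held none of the 4. The CASP4 window differed in base composition, with 38% G and C against 76.4% in GSDME, 74% in CASP6 and a median of 58% over all windows. A match of letters is a description of the sequence and was not tested for binding.

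CASP4, the human inflammatory caspase that senses cytosolic lipopolysaccharide and cuts GSDMD, was the member that moved most. It lies on chromosome 11 (NCBI Gene 837, chr11:104942866-104968574, minus strand). It had 461 reads (38.1 TPM) in the control library, 1193 reads (91.0 TPM) with NBT, 411 reads (33.1 TPM) with trametinib and 843 reads (64.8 TPM) with both drugs. Both libraries with NBT were high and both without it were low. The log2 fold change against control was 1.32 with NBT (95% counting interval 1.17 to 1.48), -0.18 with trametinib (-0.37 to 0.02) and 0.81 with the combination (0.64 to 0.97). These intervals, here and throughout, take in counting error alone, because 1 library per condition gives no spread between cultures. They can be too narrow even for counting error, because PCR can copy 1 molecule into several reads. Adding NBT to trametinib raised CASP4 by 0.99 (0.81 to 1.16), close to the 2-fold limit, and adding trametinib to NBT gave -0.51 (-0.64 to -0.39).

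Genes were called past the 2-fold limit when the reads of the 2 libraries differed in an exact binomial test, adjusted over all genes with a read, and the fold was at least 2. A lower limit of 1.5-fold was read in the same way. Between NBT and control, CASP4 was the 1 of 7 genes past the 2-fold limit, against 2.61% of the 15888 genes tested, and also the 1 past the 1.5-fold limit, against 6.87%. In the combination against control, 0 of 7 passed the 2-fold limit and 2 passed the 1.5-fold limit, CASP4 and NINJ1, both higher, with backgrounds of 8.42% and 18.8%. Trametinib against control gave 0 of 7 past 2-fold and 2 past 1.5-fold, GSDME lower and CASP6 higher, with 5.96% and 12.2% of all genes. For the combination against trametinib the members past the limits were 0 and 3, GSDME and CASP4 higher and CASP6 lower, beside 6.11% and 14.5%, and for the combination against NBT they were 0 and 0, beside 4.36% and 9.21%. With so few genes, the counts past 1.5-fold are given as values and not read as a share that differs from these backgrounds. When cultures were assumed to vary by a coefficient of 0.2, 0 of the 7 genes passed either limit in any comparison. Over the 7 genes the log2 fold changes had a median of 0.33 (NBT), 0.23 (trametinib) and 0.30 (combination), beside -0.01, 0.08 and 0.05 over all genes tested. The 3 comparisons against control share the control library, so that a low or high control value enters all of them.

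**Figure D1:**
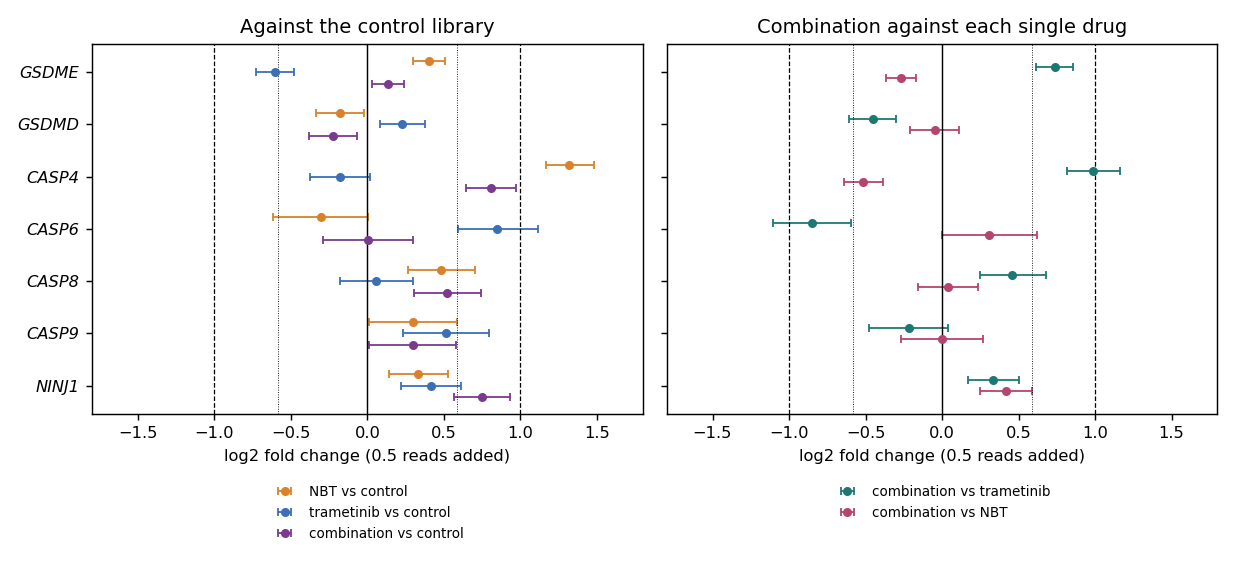
Log2 fold change (horizontal axis) of each gene between library pairs, with 95% counting intervals, dashed lines at 2-fold and dotted lines at 1.5-fold. CASP4 lies beyond 2-fold with NBT at 1.32, GSDME and CASP6 lie on opposite sides of 0 with trametinib at -0.60 and 0.85, and NINJ1 is highest with the combination at 0.75.

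GSDME, the gasdermin that executioner caspases open, moved in opposite directions with NBT and with trametinib. The gene lies on the minus strand at chr7:24698355-24795539 (NCBI Gene 1687). It had 1351 reads (64.1 TPM) in the control library, 1849 (81.1 TPM) with NBT, 898 (41.3 TPM) with trametinib and 1549 (68.3 TPM) with both. The trametinib library was the lowest and the NBT library the highest. The log2 fold change against control was 0.40 with NBT (0.30 to 0.51), short of the 1.5-fold limit. With trametinib GSDME fell, at -0.60 (-0.73 to -0.48), past that limit. In the combination the difference from control was 0.13 (0.03 to 0.24). Adding NBT to trametinib raised GSDME by 0.74 (0.62 to 0.86), past the 1.5-fold limit, while adding trametinib to NBT gave -0.27 (-0.37 to -0.17).

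GSDMD, the gasdermin opened by inflammatory caspases, lies on chromosome 8 (NCBI Gene 79792) and showed smaller differences. It had 700 reads (37.7 TPM) in the control library, 640 (32.0 TPM) with NBT, 827 (44.3 TPM) with trametinib and 625 (31.1 TPM) with both. The order of the libraries was the reverse of that of GSDME for the single drugs, with trametinib highest. Its log2 fold changes against control were -0.18 (-0.34 to -0.02) with NBT, 0.23 (0.08 to 0.37) with trametinib and -0.23 (-0.38 to -0.07) with the combination, none past the 1.5-fold limit. Against trametinib the combination gave -0.45 (-0.61 to -0.30), and against NBT -0.05 (-0.21 to 0.11). The ratio of GSDME to GSDMD in TPM, a per-length scale, was 1.70 in the control library, 2.54 with NBT, 0.933 with trametinib and 2.20 with both. GSDMD thus stood above GSDME in the trametinib library, by a ratio close to 1, and below it in the other 3.

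CASP6, an executioner caspase that cuts lamins, lies on the minus strand at chr4:109664388-109709767 (NCBI Gene 839). Its reads were 191 (12.6 TPM) in the control library, 160 (9.68 TPM) with NBT, 348 (22.6 TPM) with trametinib and 200 (12.4 TPM) with both. The trametinib library was the high one of the 4. CASP6 rose with trametinib by 0.85 on the log2 scale (0.59 to 1.11), past the 1.5-fold limit. The log2 fold change was -0.30 (-0.62 to 0.01) with NBT and 0.00 (-0.29 to 0.30) with the combination, so at this depth no difference from control was detectable in either. Adding NBT to trametinib lowered CASP6, at -0.85 (-1.11 to -0.59), also past the 1.5-fold limit. The ratio of CASP4 to CASP6 in TPM was 3.04 in the control library, 9.40 with NBT, 1.47 with trametinib and 5.25 with both. CASP6 shares 105 exon bases with MCUB on the opposite strand, a subunit gene of the mitochondrial calcium channel, which had 378, 429, 433 and 367 reads in the same order of libraries. How strand was used in the counting is not given in the sources used here, and the part of MCUB reads in the CASP6 value was not tested.

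CASP8 and CASP9 are initiator caspases, CASP8 for death receptors and CASP9 for the mitochondrial apoptosome. CASP8 (NCBI Gene 841, chr2:201233463-201287711, plus strand) had 289 reads (13.3 TPM) in the control library, 418 (18.4 TPM) with NBT, 304 (13.3 TPM) with trametinib and 433 (18.3 TPM) with both. Both libraries with NBT were above both without it. The log2 fold changes against control, 0.48 (0.26 to 0.70) with NBT, 0.06 (-0.18 to 0.30) with trametinib and 0.52 (0.30 to 0.74) with both, did not reach the 1.5-fold limit. The step from trametinib to the combination was 0.46 (0.25 to 0.68) and that from NBT to the combination 0.04 (-0.16 to 0.24).

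CASP9 (NCBI Gene 842, chr1:15491401-15524912, minus strand) had 184 reads (9.39 TPM) in the control library, 234 (11.2 TPM) with NBT, 265 (12.7 TPM) with trametinib and 236 (11.2 TPM) with both. The control library was the lowest. The log2 fold changes were 0.30 (0.01 to 0.58) with NBT, 0.51 (0.24 to 0.79) with trametinib and 0.30 (0.01 to 0.58) with the combination, all short of the 1.5-fold limit. CASP9 shares 106 exon bases with CELA2B on the opposite strand, a pancreatic elastase gene that was not analysed here. The ratio of CASP8 to CASP9 in TPM was 1.42 in the control library, 1.65 with NBT, 1.04 with trametinib and 1.64 with both.

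NINJ1, the membrane protein that tears the plasma membrane open at the end of lytic death, was the member that rose in the combination without passing a limit with either single drug. It lies on the minus strand at chr9:93121496-93134251 (NCBI Gene 4814). It had 384 reads (33.2 TPM) in the control library, 501 (39.9 TPM) with NBT, 517 (43.8 TPM) with trametinib and 675 (54.2 TPM) with both. The control library was the lowest and the combination the highest. The log2 fold change was 0.33 (0.14 to 0.53) with NBT, 0.42 (0.22 to 0.61) with trametinib and 0.75 (0.57 to 0.94) with the combination, the last past the 1.5-fold limit. Each drug gave a like step when added to the other, 0.33 (0.17 to 0.50) for NBT on trametinib and 0.42 (0.25 to 0.59) for trametinib on NBT, neither past a limit.

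**Figure D2:**
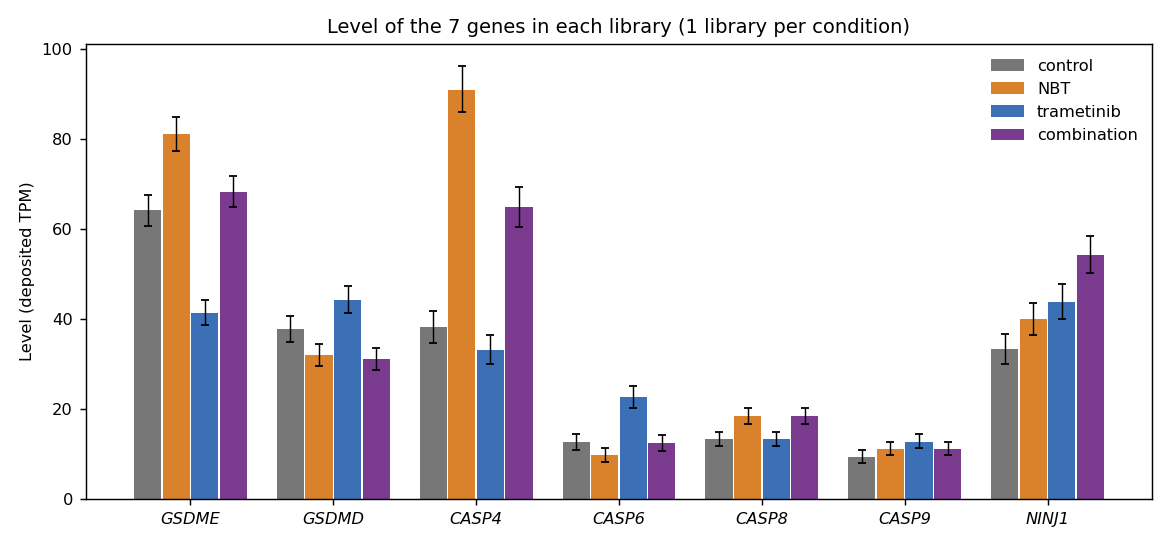
Level of each gene (deposited TPM, vertical axis) in the control, NBT, trametinib and combination libraries, 1 library each, with 95% counting intervals as error bars. CASP4 reached 91.0 TPM with NBT, GSDME was lowest with trametinib at 41.3 TPM, and NINJ1 ran from 33.2 to 54.2 TPM.

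The order of the 7 genes by TPM changed with the drugs. In the control library GSDME led, ahead of CASP4, GSDMD and NINJ1, whose neighbouring counting intervals overlapped, and then of CASP8, CASP6 and CASP9, which overlapped likewise. With NBT the order was CASP4, GSDME, NINJ1, GSDMD, CASP8, CASP9 and CASP6, and only the intervals of the last pair overlapped. With trametinib GSDMD, NINJ1 and GSDME stood within their counting intervals of each neighbour, followed by CASP4, CASP6, CASP8 and CASP9, and of these CASP8 and CASP9 overlapped. In the combination GSDME and CASP4 overlapped at the top, ahead of NINJ1, GSDMD, CASP8 and, with overlap, CASP6 and CASP9. By value CASP9 was the lowest of the 7 in every library but that with NBT, where CASP6 was. The lowest pair overlapped in each library, so which gene was lowest was not resolved.

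The design also asks whether both drugs together differ from the sum of each alone. For GSDME the single-drug log2 fold changes sum to -0.20 and the combination was at 0.13, a departure of 0.33 (0.18 to 0.49). The departure was -0.34 (-0.57 to -0.11) for CASP4, -0.54 (-0.94 to -0.15) for CASP6, -0.51 (-0.89 to -0.14) for CASP9 and -0.27 (-0.49 to -0.06) for GSDMD. In these 5 genes the counting interval excluded 0, with GSDME above the sum and the other 4 below it. For CASP8, at -0.02 (-0.32 to 0.28), and NINJ1, at 0.00 (-0.25 to 0.25), it did not. The share of all genes whose interval excluded 0 is not given, so the count of 5 is not read as particular to these genes. No gene of the 7 departed by 1.5-fold or more. Of 11367 genes with at least 50 reads in a library, 7.3% did so with a counting interval that also excluded 0. The median departure was -0.27 over the 7 genes and -0.03 over all genes tested.

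**Figure D3:**
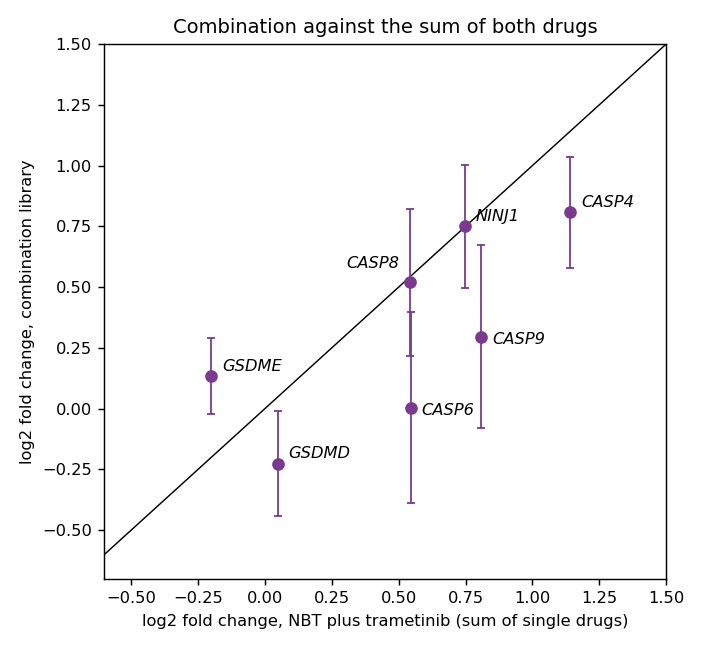
Log2 fold change in the combination library (vertical axis) against the sum of the NBT and trametinib log2 fold changes (horizontal axis), with the diagonal marking equality and bars giving the 95% counting interval of the departure. GSDME lies above the diagonal by 0.33, CASP8 and NINJ1 lie on it, and CASP6 and CASP9 lie below it by more than the other genes.

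Transcript estimates show which RefSeq forms carried the reads. They divide reads that several forms share, so no interval is given. GSDME was carried by NM_001127453.2, which encodes 496 residues in 10 exons, with 88.5% of the gene's reads in the control library, 83.4% with NBT, 82.7% with trametinib and 81.3% with both. For CASP4 the form NM_001225.4, of 377 residues, held 92.1%, 91.6%, 91.7% and 87.0% in the same order. The predicted CASP4 form XM_011543019.1 held 5.6%, 5.5%, 2.3% and 11.6%. CASP6 was nearly all NM_001226.4, of 293 residues, at 96.7%, 100%, 90.9% and 93.7%. NINJ1 was mostly NM_004148.4, of 152 residues, at 90.8%, 88.1%, 96.4% and 84.3%. In these 4 genes 1 form held at least 81.3% of the reads in every library.

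The other 3 genes were split. GSDMD divided between NM_024736.7, of 484 residues, with 52.2% in the control library, 54.0% with NBT, 59.3% with trametinib and 49.3% with both, and the predicted form XM_011517301.2. In CASP9 the predicted form XM_005246014.2 led with 65.6%, 67.7%, 55.1% and 63.6%, ahead of NM_001229.5, the form of 416 residues, with 22.9%, 12.9%, 27.0% and 29.2%. A short CASP9 form of 266 residues, NM_001278054.1, took 7.8%, 19.4%, 17.9% and 7.2%. The short form was thus estimated at 14.4 reads in the control library, 45.4 with NBT, 47.6 with trametinib and 17.1 with both. With 184 to 265 reads over 4 forms, these CASP9 splits are uncertain, and a change of form was not tested. CASP8 had 16 forms in the table, of which only 4 had reads in every library. Its form NM_033356.4 went from 30.9% to 5.8%, 22.5% and 21.2%, and NM_001372051.1 from 14.7% to 36.8%, 5.3% and 11.2%. The predicted form XM_011511969.2 varied less, with 25.2%, 32.6%, 17.2% and 16.4%. With 289 to 433 reads over 16 similar forms, these CASP8 shares are not precise enough to rank the forms.

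**Figure D4:**
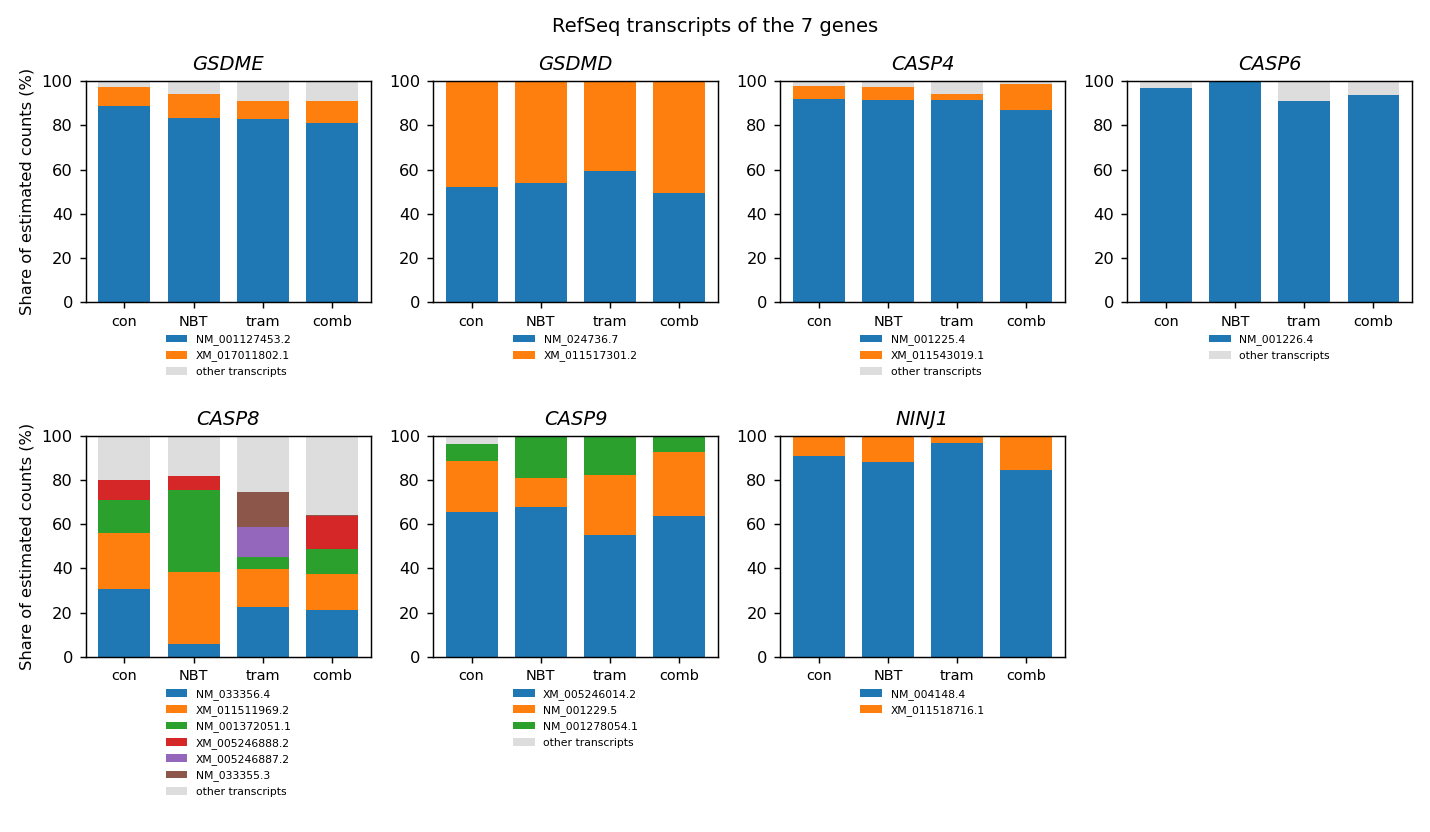
Share of each gene's estimated reads (%, vertical axis) on each RefSeq transcript in the control (con), NBT, trametinib (tram) and combination (comb) libraries, with transcripts under 10% in every library in grey. A single form fills most of each bar in GSDME, CASP4, CASP6 and NINJ1, and several forms share it in GSDMD, CASP8 and CASP9.

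Over the 3 comparisons against control, the genes with the pattern most like each member were sought among 9986 genes with at least 100 reads in every library, by the Euclidean distance between their log2 fold changes. CASP9 was nearest to another caspase, CASP10, at a distance of 0.04, with 0.30, 0.54 and 0.26 in CASP10 for NBT, trametinib and the combination. GSDME was nearest to TPD52L2 (0.02), ZNF23 and OSMR, and NINJ1 to HMMR (0.04), AP5Z1 and TANGO2. CASP4 had no close neighbour, its nearest being ZSWIM4 at 0.35, TLR6 and SERPINB8. The nearest to CASP6 were CYB561A3 (0.07), MXD3 and PKN3, those to CASP8 were ZNF616 (0.03), B4GALT7 and LRRC75A, and those to GSDMD were FN3KRP (0.02), DMWD and ENDOD1. These distances rest on 4 libraries. A distance such as 0.04 is small beside counting error, since the interval of CASP9 with NBT ran from 0.01 to 0.58. Which genes are the closest neighbours, and in what order, was thus not resolved.

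Among the genes that act beside the 7, the inflammasome list held the largest movements. NLRP1, a sensor that activates caspase-1, had 714 reads in the control library, 1735 with NBT, 909 with trametinib and 2702 with both. NLRP1 rose by 1.23 (1.10 to 1.36) on the log2 scale with NBT and by 1.86 (1.74 to 1.98) with the combination, both past the 2-fold limit, and was at 0.33 (0.19 to 0.48) with trametinib. IL1B, the cytokine that caspase-1 matures, had 282, 151, 166 and 13 reads in the same order. It fell by 4.45 in the combination, past the 2-fold limit, and by 0.95 and 0.78 with NBT and trametinib, past the 1.5-fold limit only. CARD8, a further sensor, had 355, 494, 530 and 640 reads and rose by 0.79 (0.60 to 0.98) in the combination, past the 1.5-fold limit. IL18 had 734, 1038, 512 and 655 reads and passed the 1.5-fold limit only between the combination and NBT, at -0.68 (-0.82 to -0.53). Of the 11 genes, 5 had under 20 reads in every library, among them AIM2 and the adaptor PYCARD, with 0 to 5 and 0 to 2 reads, and NLRP6, which went from 0 to 8 reads with trametinib and was called on those reads. The list's median log2 fold change was 0.74, 0.33 and 0.79 with NBT, trametinib and both, but with 5 reads added it was 0.43 and 0.42 with NBT and with both, and on FPKM 0.40 and 0.38. The numbers past 2-fold against control were 1 of 10 tested, 1 of 11 and 2 of 11, with the all-gene backgrounds of 2.61%, 5.96% and 8.42%.

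Among other caspases, CASP1, CASP5 and CASP14 had at most 9 reads in any library. The initiator CASP2 had 1142 reads in the control library, 900 with NBT, 1019 with trametinib and 719 with both, and fell by 0.73 in the combination, past the 1.5-fold limit. The other gasdermins in the table were low, with 108 to 132 reads for GSDMB and at most 23 for GSDMA, GSDMC and PJVK, and the 1 called was GSDMC, with 8 reads in the combination against 23 with NBT. NINJ2 was not analysed here. The median log2 fold changes of these 4 gasdermins with NBT, trametinib and both were 0.07, 0.11 and -0.13, and the first was -0.20 on TPM.

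In the apoptosome list CYCS, cytochrome c, had 4707, 5096, 5031 and 5059 reads in the control, NBT, trametinib and combination libraries, and BIRC6 2377, 2315, 2128 and 2214, neither past a limit. None of the 9 genes passed 2-fold in any of the 5 comparisons. Past 1.5-fold against control there were 2, both in the combination, the inhibitors of apoptosis BIRC2, higher at 0.69 (0.56 to 0.83), and BIRC3, lower at -0.84 (-1.36 to -0.35), beside 18.8% of all genes. Adding NBT to trametinib moved a further 2, XIAP, which inhibits caspases, by 0.76 (0.64 to 0.88), and APAF1, the scaffold on which CASP9 is activated, by -0.70 (-0.86 to -0.53), beside 14.5% of all genes. APAF1 had 543 reads in the control library, 432 with NBT, 777 with trametinib and 496 with both, highest with trametinib alone. The list's median was 0.03, 0.05 and 0.04 with NBT, trametinib and both.

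On the caspase-8 platform FADD, CFLAR, RIPK1 and TRADD passed no limit, CFLAR having 1582, 1806, 1931 and 2130 reads in the same order and RIPK1 928, 1085, 1275 and 1369. RIPK3, the kinase that starts necroptosis, had 0 or 1 read, and MLKL, its membrane-lysing target, had 952 reads in the control library, 1181 with NBT, 605 with trametinib and 619 with both. MLKL fell by 0.67 with trametinib and by 0.68 with the combination, past the 1.5-fold limit. It was the 1 gene of its list past that limit in each, beside 12.2% and 18.8% of all genes. The list's median was 0.14 with NBT and 0.27 with trametinib over 5 genes. In the combination it was 0.41 over 6 genes, RIPK3 entering with its 1 read, and 0.28 with 5 reads added. Among 9 caspase substrates LMNB1, a nuclear lamin that CASP6 and related caspases cut, was the 1 past 1.5-fold, with 2649, 1989, 2600 and 1513 reads and a fall by 0.87 in the combination, where 18.8% of all genes passed. LMNA and ACIN1, the most abundant of these substrates, had 9637 to 10866 and 4122 to 4483 reads. The list's median was -0.14, -0.06 and -0.11 with NBT, trametinib and both, beside the all-gene values above.

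ESCRT-III proteins repair membranes that gasdermins have pierced. Of 15 such genes CHMP1B was the 1 past the 2-fold limit, with 1004 reads in the control library, 1411 with NBT, 1467 with trametinib, 2229 with both and a rise of 1.09 (0.98 to 1.20) in the combination, so that 1 of 15 stood beside 8.42% of all genes. PDCD6IP, with 3328, 3592, 4372 and 4150 reads, and VPS4A, with 3192, 3491, 3220 and 3537, passed no limit. The median of the list was 0.09, 0.14 and 0.23 with NBT, trametinib and both. Of 5 genes listed here as regulators of gasdermins, IRF1, a transcription factor known to induce GSDMD, was the 1 past 1.5-fold. It had 556, 440, 874 and 576 reads, a rise of 0.64 (0.48 to 0.80) with trametinib and a fall by 0.65 when NBT was added to trametinib. With trametinib 12.2% of all genes passed that limit. HMGB1, with 9190 to 11865 reads, and ZDHHC5, with 2559 to 2991, passed no limit. The median of the 5 was -0.16, 0.01 and -0.15 with NBT, trametinib and both. With NBT and with trametinib this median was the value of HMGB1 itself, whose role as a regulator was not tested.

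**Figure D5:**
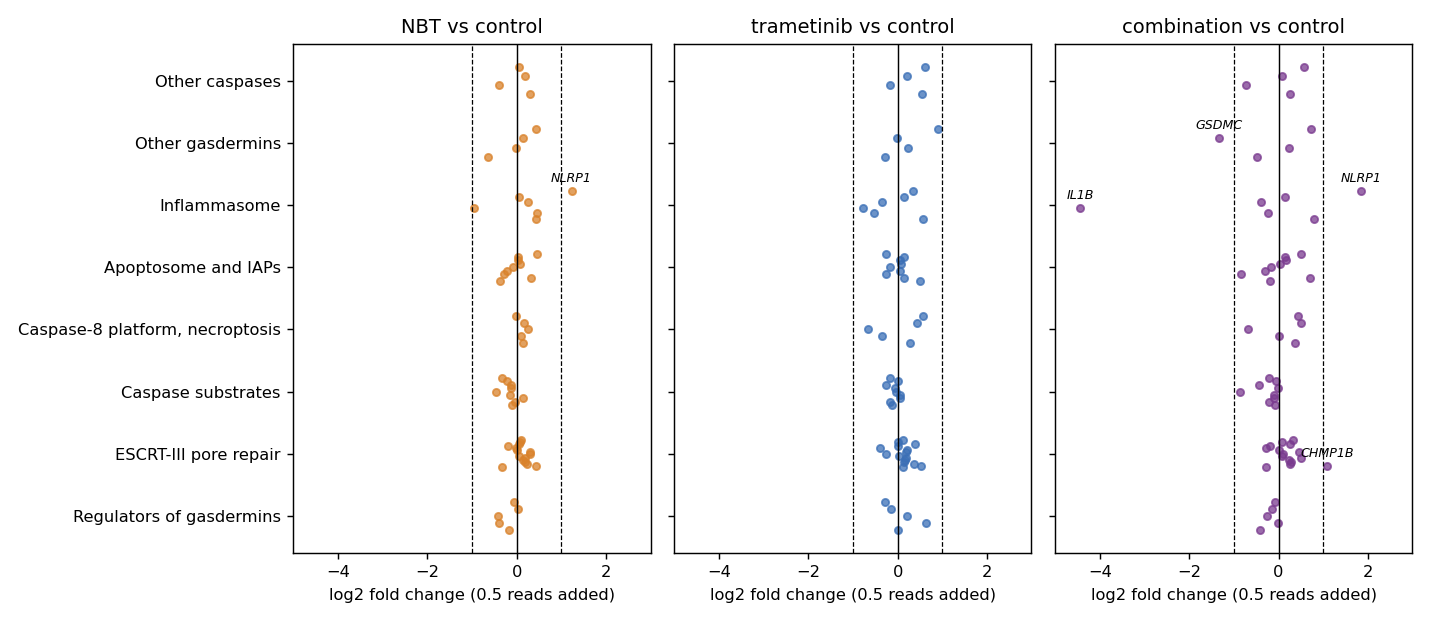
Log2 fold changes against control (horizontal axis) of the genes of 8 lists that act beside the 7 genes, 1 point per gene with at least 20 reads in a library, with dashed lines at 2-fold. NLRP1 at 1.23 and 1.86, IL1B at -4.45 and CHMP1B at 1.09 lie outside them and were called, GSDMC in the combination rests on 8 reads and was not called against control, and the remaining points lie inside.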

How the data were processed

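Total RNA of 4 libraries was sequenced on the BGISEQ-500 platform. Bowtie2 2.2.5, RSEM 1.2.8 and hg38 are named in the submitters' processing notes. The authors deposited, per gene and per transcript, estimated counts that are not normalized, TPM values (scaled to length and to a fixed sum per library) and FPKM values (scaled to length and to mapped fragments). Of the genes, 53.9% had an estimated count that was not whole in some library. CASP4 and NINJ1 were whole in all 4. The labels name a kit that depletes bacterial ribosomal RNA. Libraries were assigned to conditions by title and treatment.

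Estimated counts were rounded and scaled to each library's sum, and fold changes were computed with 0.5 reads added, with exact Clopper-Pearson intervals of 95%. Calls used an exact two-sided binomial test of 2 libraries' reads given their sum, the Poisson model in the study's methods, with Benjamini-Hochberg adjustment over genes with a read in either library, at most 0.05, and a fold of at least 2 or 1.5. It compares libraries, not conditions. Intervals of departures from additivity came from the delta method. A planned search of protein sequences was not run. The test was checked on simulated Poisson counts without variation between cultures, the model it assumes, so the check does not cover that variation. Alternatives used edgeR 4.0.16 factors and negative binomial test, DESeq2 1.42.0 size factors, TPM and FPKM with 0.1 added, 5 reads added, transcript sums and a minimum of 10 reads. Gene positions are from RefSeq, and strands, exons and protein lengths from the GENCODE annotation of GRCh38. Start-site windows are from RefSeq on GRCh38.p14.

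The 7 genes and the 8 lists were chosen with earlier results of these data known. Named were the 7 genes, list genes past 2-fold with at least 100 reads, up to 2 of the most abundant per list, and the 3 nearest in pattern. Of the transcripts with at least 10% of a gene's reads in a library, only some were named. Other list genes were named after their values were seen. Some list genes are not reported here.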

Additional observations from a re-analysis of the deposited data

Results flagged for a closer look

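In 2 genes of the lists, NBT had effects of opposite sign alone and with trametinib. CASP10, an initiator caspase related to CASP8, stood at a log2 fold change of 0.30 for NBT against control and of -0.28 for the combination against trametinib. For CHMP2A, an ESCRT-III subunit, the values were 0.23 and -0.11. None of these 4 values passed the 1.5-fold limit, and each rests on 1 library per condition. The difference between the NBT values of a gene is its departure from additivity. It was -0.58 (-0.96 to -0.19) for CASP10 and -0.34 (-0.48 to -0.20) for CHMP2A. These intervals take in counting error alone, both genes were flagged for their opposite signs, and a difference between conditions was not tested.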

How the results depend on the processing

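The 35 log2 fold changes of the 7 genes and their 7 departures from additivity moved by less than counting error under edgeR's and DESeq2's scaling, TPM, FPKM, 5 reads added and transcript sums. The 5 values that changed sign were all near 0, namely the fold change of CASP8 with trametinib (-0.01 to 0.06) and between the combination and NBT (-0.03 to 0.04), that of CASP6 with the combination (-0.03 to 0.02), and the departures of CASP8 (-0.06 to 0.02) and NINJ1 (-0.01 to 0.04). CASP4 ranged from 1.25 to 1.33 with NBT and from 0.97 to 1.03 between the combination and trametinib, so that under edgeR's and DESeq2's factors 1 of the 7 genes, CASP4, passed the 2-fold limit there, against 0. When edgeR's negative binomial test was given a coefficient of variation of 0.2, the genes past either limit numbered 69 (NBT), 365 (trametinib) and 547 (combination) against control, and 302 and 204 for the combination against trametinib and NBT, and 0 of the 7 genes passed. Of the 69, 73.9% were higher, against 61.4%. With a coefficient of 0.4 the counts past 2-fold were 4, 22, 51, 14 and 13, and again 0 of the 7. The coefficients are assumptions, since 1 library per condition measures none. Medians of the lists were less stable: that of the inflammasome list moved from 0.74 to 0.43 (NBT) and from 0.79 to 0.42 (combination) with 5 reads added, that of the caspase-8 list from 0.41 to 0.28 (combination), and medians near 0, such as 0.05 to -0.03 for the apoptosome list with trametinib under edgeR's factors, changed sign. Of 72 transcript shares, 20 moved by more than counting error on TPM. No paired analysis was possible because each condition has 1 library. Depth limited the low members most, as in CASP6 with NBT, where 160 reads against 191 left an interval from -0.62 to 0.01.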
